A study of Mus musculus with 60 samples.

Results

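Cytosolic ribosomal proteins were followed across the mammary glands of ovariectomized mice given estrogen, progesterone or both. Members were taken by name: every probe set annotated to exactly 1 symbol that is Rpl or Rps followed by a digit, or Rplp0, Rplp1, Rplp2 or Rpsa, with the S6 kinases and symbols of pseudogenes left out. The rule found 45 of 15964 named genes, read by 71 of 36701 probe sets, and used no measured value. A probe set is a group of short oligonucleotides on the array that reads 1 transcript, or several near-identical ones. By textbook roles, 19 of the genes encode proteins of the small (40S) subunit and 19 proteins of the large (60S) subunit. The other 7 carry a ribosomal protein's name without being standard subunits: Rpl3l, Rpl7l1, Rpl10l, Rpl39l, Rps27l and Rps4l are named as paralogs, and Rps19bp1 is a protein that binds Rps19.

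There were 5 groups, and the animals of all of them had lost their ovaries and were injected intraperitoneally, daily for 4 days. Vehicle animals (V, n = 4) received 100 ul of sesame oil. Estrogen animals (E, n = 4) received 2 ug of estrogen, and progesterone animals (P, n = 4) received 1 mg of progesterone. The E+P animals (n = 5) received both hormones at these doses. Fat pads that hold no epithelium (n = 3), also under both hormones, are labelled E+P CFP. The labels give no strain and no age. The description of the vehicle arrays names progesterone, so groups follow the sample titles. Each animal's RNA was read on 3 Affymetrix MG-U74 arrays, types A, B and C, which makes 60 arrays for 20 animals. Arrays that share a group and a number were taken as 1 animal. The titles do not say whether the fat pads came from other mice than the E+P glands. They were taken as separate animals, with no pairing in the main fit.

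The cytosolic ribosome is built from ribosomal RNAs and about equal amounts of each ribosomal protein, and its supply sets how much protein a cell can make. Ribosomal protein mRNAs are among the most abundant in any tissue. Most begin with a 5' terminal oligopyrimidine (TOP) tract, a C at the first base followed by a run of C and T, through which mTOR and the protein LARP1 control their translation. In the mammary gland, estrogen and progesterone act on receptors in luminal epithelial cells and in the stroma and start rounds of ductal growth that need new ribosomes.

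RefSeq start sites (GRCm38.p6) were matched by symbol for 38 of the 45 genes, with 48 promoters among them. The sequences below run from 20 bases before the annotated start to 20 bases from it onward, and capitals mark the pyrimidine tract at or near the start. They are shown because the tract is the feature this gene family is best known for. The first 8 were picked for having it: in them the tract begins exactly at the annotated start, for 5 small subunit genes (Rps18, Rps10, Rps27, Rps15a and Rps6) and 3 large subunit genes (Rplp2, Rpl38 and Rpl35a).
Rps18: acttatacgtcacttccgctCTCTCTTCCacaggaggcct
Rps10: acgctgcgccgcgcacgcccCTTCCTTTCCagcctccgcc
Rps27: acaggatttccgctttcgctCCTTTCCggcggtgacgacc
Rps15a: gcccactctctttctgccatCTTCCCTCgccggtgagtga
Rps6: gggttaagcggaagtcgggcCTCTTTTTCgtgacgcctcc
Rplp2: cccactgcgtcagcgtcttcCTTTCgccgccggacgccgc
Rpl38: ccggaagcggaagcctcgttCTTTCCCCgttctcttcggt
Rpl35a: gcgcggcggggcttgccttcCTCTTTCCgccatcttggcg
The next 4 belong to genes that passed a test below, and are not typical of them. Of the 12 such genes with a promoter, 8 have no tract within 5 bases of the start. The tract begins 2 bases after the start in Rpl13a, 1 base before it in Rpl7a and 4 bases after it in Rps26, and none was found in Rpl6.
Rpl13a: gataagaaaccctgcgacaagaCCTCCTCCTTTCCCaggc
Rpl7a: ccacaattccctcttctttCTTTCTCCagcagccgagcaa
Rps26: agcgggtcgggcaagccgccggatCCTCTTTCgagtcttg
Rpl6: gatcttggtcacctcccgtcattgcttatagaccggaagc

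These windows lie at chr17:33955646-33955685 for Rps18 and chr17:27635225-27635264 for Rps10, both on the minus strand. On the minus strand too are Rps27 (chr3:90213629-90213668), Rps15a (chr7:118116128-118116167) and Rps6 (chr4:86857348-86857387). Rplp2 (chr7:141447631-141447670), Rpl38 (chr11:114668560-114668599) and Rpl35a (chr16:33056462-33056501) are on the plus strand. Rpl13a (chr7:45128726-45128765) and Rps26 (chr10:128626487-128626526) are on the minus strand, and Rpl7a (chr2:26910787-26910826) and Rpl6 (chr5:121204481-121204520) on the plus strand.

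A tract at the start (C, then 4 bases that are C or T) was present in 8 of the 38 matched genes, or 21.1%, against 3.01% of the 27025 genes with a promoter in the table. Within 5 bases of the start it was present in 15 of 38, or 39.5%, against 21.2%. Over 300 bases around the start, on both strands, the ETS motif CCGGAAG was found in 16 of 38 genes (42.1%, against 9.93% of all) and the YY1 motif AAGATGGC in 6 (15.8%, against 3.19%). The E box CACGTG, which Myc can bind, was found in 3 (7.89%, against 8.09%), and TATAAA in 4 (10.5%, against 15.7%). The consensus estrogen response element was found in 0 of 38 genes and in 0.074% of all genes, which says only that these letters are not in the windows read. Matches of different motifs were counted separately, also where they overlap. These shares describe annotated starts, which can lie some bases from the start used in the gland.

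Of the 71 probe sets, 50 passed the filter on dim signal, for 38 genes: 16 of 19 small subunit genes, 15 of 19 large subunit genes and all 7 of the genes set apart. Another 21 probe sets did not, and 7 genes had no probe set left. These were Rpl27, Rpl32, Rpl35a, Rpl39, Rps15, Rps15a and Rps6, the last being the S6 kinase substrate. Their median signal over the animals lay between 9.06 and 49.6, so these probe sets are too dim to follow the gene. Only in 7 of the 50 tested probe sets did any animal lie at the floor. Signals of different probe sets are on different scales, so levels below are compared only between animals for 1 probe set. Values are log2 of the scaled signal, and differences between groups are given as log2 ± SE.

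The samples were checked before the comparisons. In the E+P CFP animals, 5 of 11 luminal epithelial genes (Cldn7, Epcam, Krt19, Krt7 and Krt8) were at the floor in every animal, which matches the label of fat pads without epithelium. The level of the 11 genes together, taken as the mean deviation from each gene's average, ran from -3.43 to -3.22 there and from 0.72 to 1.31 in E+P. The same mean over 14 skeletal muscle genes ran from 1.97 to 2.61 in E+P CFP and from -0.94 to 0.13 in E+P. Lymph nodes were removed at collection, yet the mean over 15 lymphocyte genes was 1.26 in V 4 and -1.38, -1.27 and -1.34 in the other V animals. Gapdh, read by probe sets at either end of its mRNA as a sign of RNA integrity, gave a 3'/5' ratio of 3.69 in V 4 and 4.39 in E+P CFP 1, against 1.24 to 2.76 in the other animals. In bulk tissue, fewer cells of a type and less RNA per cell cannot be told apart.

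**Figure D1:**
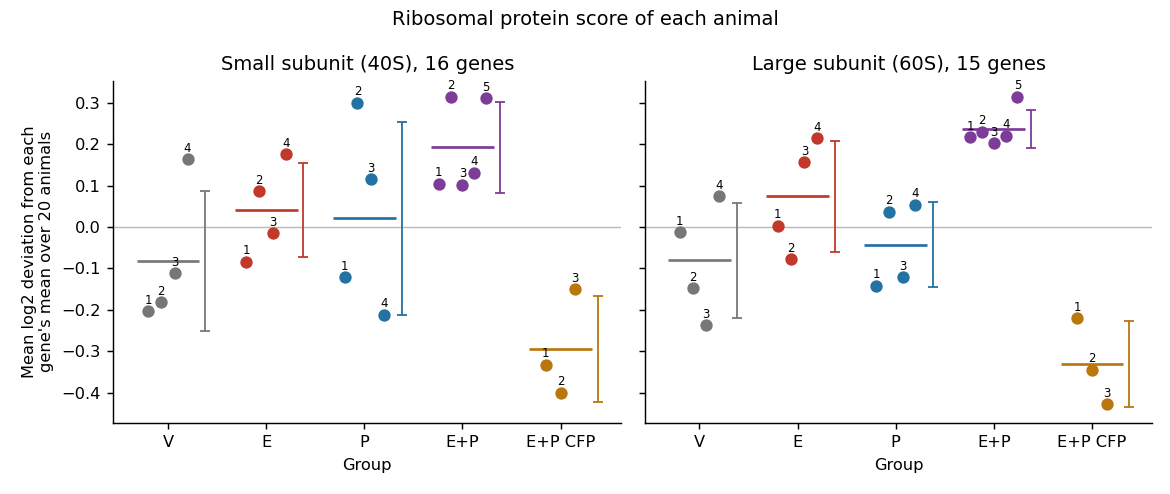
Mean log2 deviation of the tested 40S genes (n = 16) and 60S genes (n = 15) from each gene's average over 20 animals, in log2 units, by animal; points are animals, horizontal lines group means and vertical bars the SD. The 5 E+P animals lie between 0.10 and 0.32 for both subunits, and the 3 E+P CFP animals lie between -0.43 and -0.15.

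As a description, the 31 tested subunit genes were highest in E+P and lowest in E+P CFP. The mean deviation of the 40S genes was -0.08 ± 0.17 in V, 0.04 ± 0.11 in E, 0.02 ± 0.23 in P, 0.19 ± 0.11 in E+P and -0.29 ± 0.13 in E+P CFP (SD, n = 4, 4, 4, 5 and 3). For the 60S genes it was -0.08 ± 0.14 in V, 0.07 ± 0.14 in E, -0.04 ± 0.10 in P, 0.24 ± 0.04 in E+P and -0.33 ± 0.10 in E+P CFP (SD). Both subunits thus had their highest mean in E+P and their lowest in E+P CFP, as the plot of mean deviation by animal shows. Animals of V, E and P overlapped with each other, and E 4 reached into the range of E+P for both subunits. For the 40S genes alone, V 4 (0.16), P 2 (0.30) and P 3 (0.12) reached into it too. Within V, the animal V 4 stood apart: 25 of the 31 genes lay above their average in it, and 6, 7 and 6 in V 1, V 2 and V 3. In P, 25 genes lay above their average in P 2, and 8, 18 and 10 in P 1, P 3 and P 4. The lymphocyte mean was also highest of its group in V 4 (1.26) and P 2 (0.97). In E it was highest in E 2 (1.83), where 24 genes lay above their average, beside 29 in E 4. In E+P it was lowest in E+P 5 (-1.50), where 30 genes lay above their average, the most of any animal. The part of lymphocytes in the ribosomal values was not tested.

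The comparison of E+P with E+P CFP sets the gland with its epithelium against fat pads that lack it, both under the same hormones. Muscle genes read higher in those fat pads, as given above. In limma with Benjamini-Hochberg adjustment over all probe sets tested, 14 of the 50 probe sets were higher, for 12 genes, and 1 was lower (Rpl39l). That is 28% higher and 2% lower, beside 5.26% of all tested probe sets higher and 2.66% lower. The 12 genes were split evenly: 6 of 16 small subunit genes (Rps18, Rps26, Rps4x, Rps20, Rps7 and Rps3) and 6 of 15 large subunit genes (Rpl10a, Rpl6, Rpl13a, Rpl22, Rplp0 and Rpl7a).

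Over all 38 genes the median difference was 0.47, where that of all tested probe sets was 0.02. Above 0 lay 32 genes (84.2%, beside 51.5% of all tested). Among the subunit genes 15 of 16 for 40S and 15 of 15 for 60S lay above 0. The upper quartile of all tested probe sets was 0.34, and 23 of the 38 genes lay above it. With arrays scaled by their median in place of their trimmed mean, the median of all tested probe sets moved to -0.12, and that of the members to 0.24, or 0.35 above all probe sets instead of 0.45. The split of higher and lower calls was then 8 and 2, and with quantile normalization it was 22 and 1. Without E+P CFP 2 the count of calls was 10, and without E+P CFP 1 it was 11.

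**Figure D2:**
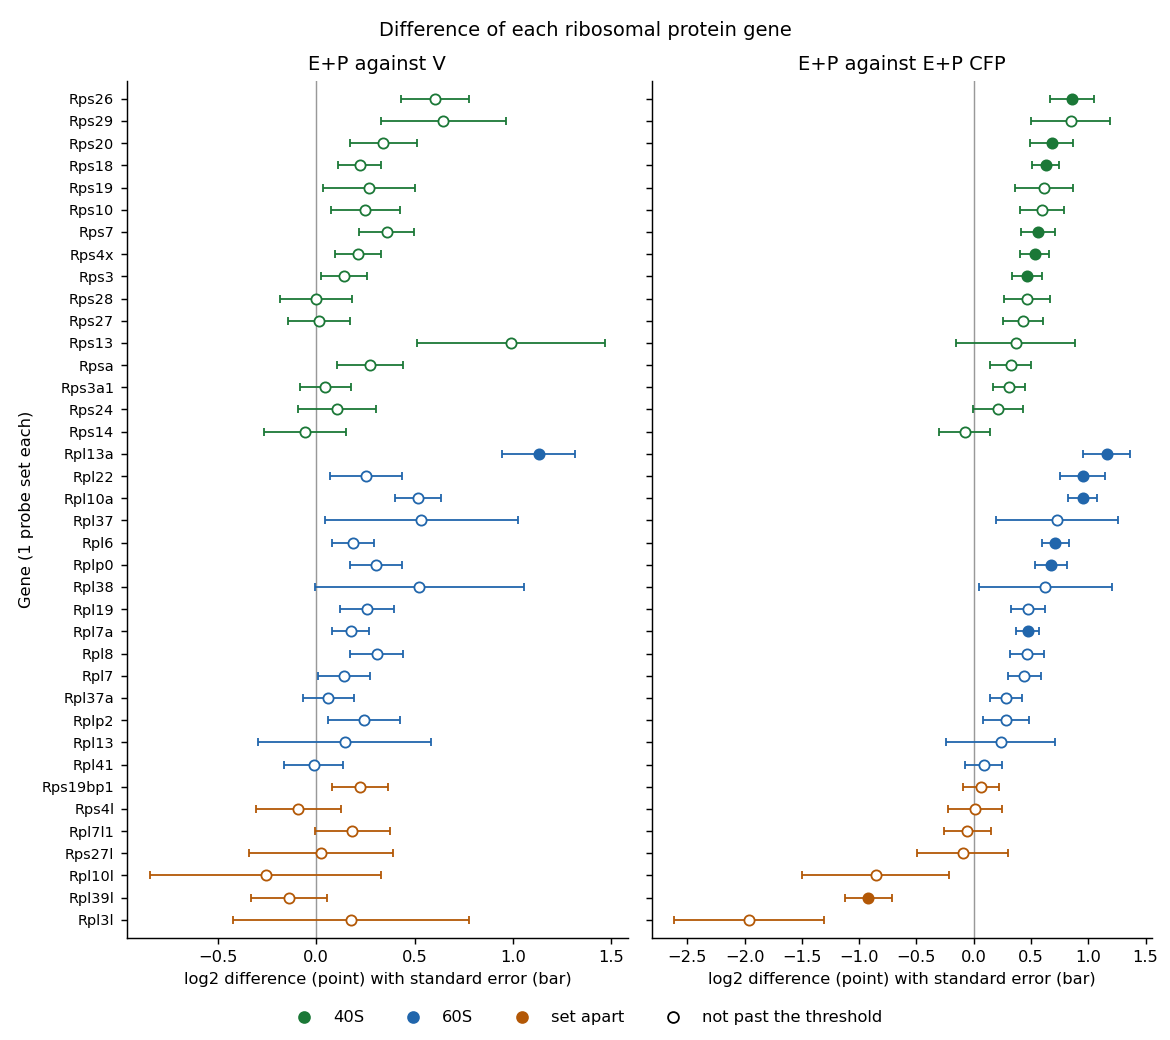
Log2 difference with its SE for the tested member genes, 1 probe set each, in E+P against V and in E+P against E+P CFP; filled points passed an adjusted p of 0.05 and colours mark 40S, 60S and the genes set apart. Against E+P CFP the genes range from -1.96 (Rpl3l) to 1.16 (Rpl13a), and against V from -0.26 (Rpl10l) to 1.13 (Rpl13a).

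Rpl10a, a protein of the L1 stalk through which spent tRNA leaves the ribosome, had the smallest adjusted p among the members. Its probe set 100711_at read 11.05, 11.43, 11.30, 11.26 and 11.37 in the E+P animals and 10.21, 10.32 and 10.47 in the E+P CFP animals. It read 10.78, 10.67, 10.59 and 11.02 in V, 11.07, 11.13, 11.04 and 11.14 in E, and 10.83, 11.18, 10.84 and 10.61 in P. All animals with epithelium lay above all 3 without it, and E+P against E+P CFP differed by 0.95 ± 0.13 (adjusted p = 3.80e-05, limma). The second Rpl10a probe set, 161327_f_at, differed by 0.62 ± 0.16 (adjusted p = 0.0179, limma).

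Rpl13a, a 60S protein that can also leave the ribosome to silence inflammatory mRNAs, read 8.56, 9.24, 8.82, 8.48 and 8.95 in E+P and 7.89, 7.35 and 7.71 in E+P CFP (probe set 92834_at). The groups did not overlap, and they differed by 1.16 ± 0.20 (adjusted p = 0.000695, limma). Rpl6, a 60S protein, read 11.48, 11.79, 11.73, 11.59 and 11.76 in E+P and 10.85, 11.00 and 11.03 in E+P CFP (96962_at). Again every E+P animal lay above every E+P CFP animal, with a difference of 0.71 ± 0.12 (adjusted p = 0.000346, limma).

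Rplp0 forms the base of the stalk that recruits translation factors to the 60S subunit. Its probe set 101213_at read 12.75, 12.99, 12.88, 12.92 and 13.11 in E+P and 12.18, 12.27 and 12.32 in E+P CFP, and it was higher in E+P by 0.67 ± 0.14 (adjusted p = 0.00438, limma). A second, 166005_f_at, was higher by 1.06 ± 0.23 (adjusted p = 0.00393, limma), although E+P CFP 2, at 9.38, lay well under E+P CFP 1 and 3, at 10.46 and 10.35. Rpl22 is a 60S protein dispensable for most translation but needed for T cell development. It read 7.90, 8.38, 7.34, 8.39 and 8.57 in E+P and 7.13, 7.07 and 7.31 in E+P CFP (92857_at). E+P 3 lay just above E+P CFP 3 while the other E+P animals stood clear, and the difference was 0.95 ± 0.20 (adjusted p = 0.0037, limma). Rpl7a, also of the 60S subunit, read 11.37 to 11.75 in E+P and 11.01 to 11.21 in E+P CFP, a difference of 0.47 ± 0.10 (adjusted p = 0.00499, limma).

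Among the small subunit genes, Rps18, a protein of the head of the subunit whose mRNA starts with the tract shown above, read 12.50, 12.64, 12.61, 12.60 and 12.74 in E+P. In E+P CFP it read 12.03, 11.88 and 12.06 (98333_at), below every E+P animal, a difference of 0.63 ± 0.12 (adjusted p = 0.00191, limma). Rps26 lines the channel where mRNA leaves the subunit. It read 10.51, 10.73, 10.26, 10.79 and 10.69 in E+P and 9.90, 9.41 and 9.89 in E+P CFP (137217_f_at), a difference of 0.86 ± 0.19 (adjusted p = 0.00484, limma). The groups did not overlap for this gene either.

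Rps4x, encoded on the X chromosome, read 12.37 to 12.61 in E+P and 11.95 to 12.07 in E+P CFP, a difference of 0.53 ± 0.13 (adjusted p = 0.0114, limma). Rps7, which can bind Mdm2 when free of the ribosome, read 11.80 to 12.17 and 11.21 to 11.49, a difference of 0.56 ± 0.15 (adjusted p = 0.0252, limma). Rps3, at the mRNA entry channel, read 12.04 to 12.40 and 11.72 to 11.83, a difference of 0.47 ± 0.13 (adjusted p = 0.0292, limma). For these 3 genes the groups did not overlap. Rps20, in the head of the subunit, did overlap. It read 14.40 to 14.68 in E+P and 13.63, 13.62 and 14.42 in E+P CFP, a difference of 0.68 ± 0.19 (adjusted p = 0.0237, limma). Median scaling ended the calls of Rpl7a, Rps20, Rps3, Rps4x and Rps7 and of 161327_f_at for Rpl10a. Leaving out E+P CFP 1 ended those of Rps20, Rps3, Rps4x and Rps7, and leaving out E+P CFP 2 those of Rps20, Rps3, Rps7 and the second probe sets of Rpl10a and Rplp0. Rps3 also lost its call without E+P CFP 3, E+P 2 or E+P 5, Rps7 without E+P 2, and the second probe set of Rpl10a without E+P CFP 3. Rps20 lost it in fits without the filter, without the intensity trend or with only the 2 groups compared.

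**Figure D3:**
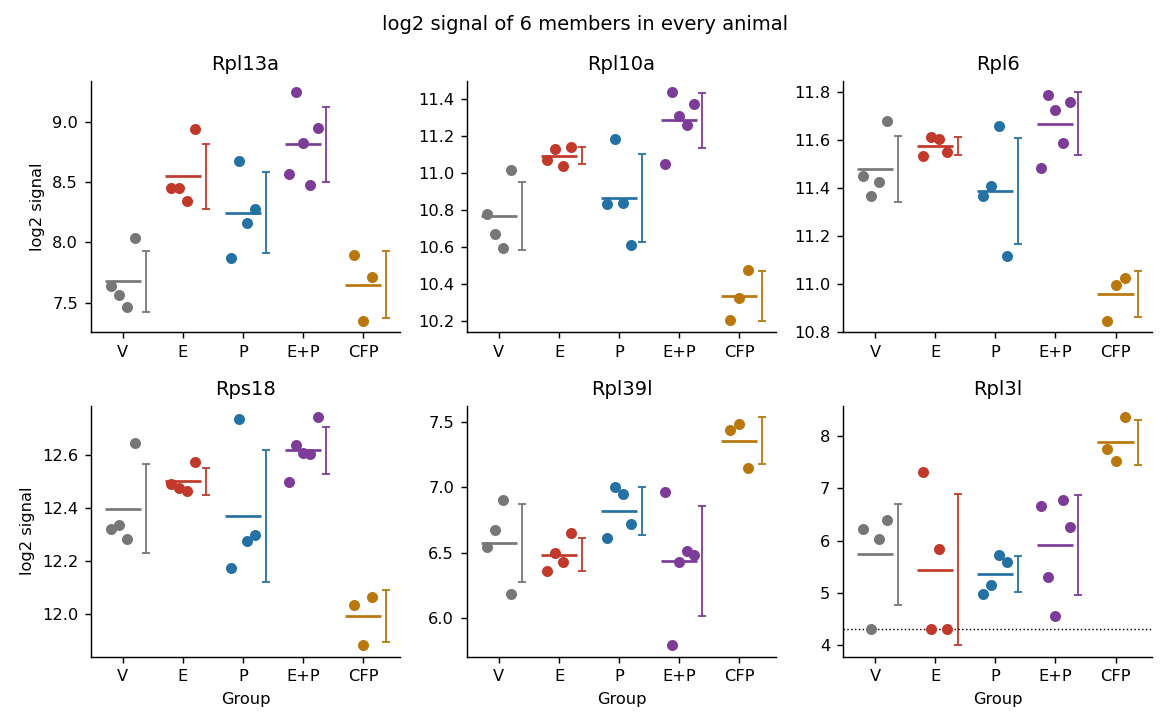
Log2 signal by animal in the 5 groups for Rpl13a, Rpl10a, Rpl6, Rps18, Rpl39l and Rpl3l, each on its own axis; points are animals, horizontal lines group means, vertical bars the SD and dotted lines the floor. Rpl13a, Rpl10a, Rpl6 and Rps18 are lower in all 3 E+P CFP animals than in any E+P animal, while Rpl39l and Rpl3l are higher.

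Every E+P animal lay above every E+P CFP animal for 22 of the 50 probe sets (44%, against 8.42% of all tested). These included genes that did not pass the adjusted threshold. Rpl19 differed by 0.47 ± 0.15 (adjusted p = 0.0564, limma), Rpl8 by 0.46 ± 0.15 (adjusted p = 0.0593, limma) and Rps10 by 0.59 ± 0.19 (adjusted p = 0.0656, limma). Rps19, a protein whose loss causes Diamond-Blackfan anaemia, differed by 0.61 ± 0.25 (adjusted p = 0.165, limma). At an unadjusted p below 0.05 were 26 of the 50 probe sets (52%, against 20.1% of all tested). Rps27 differed by 0.43 ± 0.17, Rpsa, a 40S protein also known as a laminin receptor, by 0.32 ± 0.18, Rplp2 of the stalk by 0.28 ± 0.20, Rps24 by 0.21 ± 0.22 and Rpl41, the smallest ribosomal protein, by 0.09 ± 0.16, and none of them passed. Rps29 differed by 0.85 ± 0.35, Rpl37 by 0.73 ± 0.53 and Rpl38 by 0.63 ± 0.58, all on dim probe sets. Rps29 rested on E+P CFP 1, which read 4.43 against 6.28 and 6.11 in the other fat pads, and without it the difference was 0.26. Rps14, at -0.08 ± 0.23, was the 1 subunit gene below 0.

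Other features moved between E+P and E+P CFP as well. All 11 luminal genes were called higher and 13 of 14 muscle genes lower, and 6 of 7 proliferation genes were higher. Of the basal epithelial genes 3 of 6 were higher, and of the adipocyte genes 6 of 9 were lower, with 0 of 9 above 0. For all tested probe sets the shares called were 5.26% higher and 2.66% lower. The adipocyte mean ran from -0.53 to -0.02 in E+P and from 0.31 to 0.53 in E+P CFP. The mean over the proliferation genes ran from 0.35 to 1.83 in E+P and from -1.45 to -0.84 in E+P CFP. The lymphocyte mean ran from -1.50 to 0.74 in E+P and from 0.02 to 0.76 in E+P CFP. The part of these in the ribosomal differences was not tested, and the presence of epithelium cannot be told apart from whatever else distinguishes cleared fat pads.

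**Figure D4:**
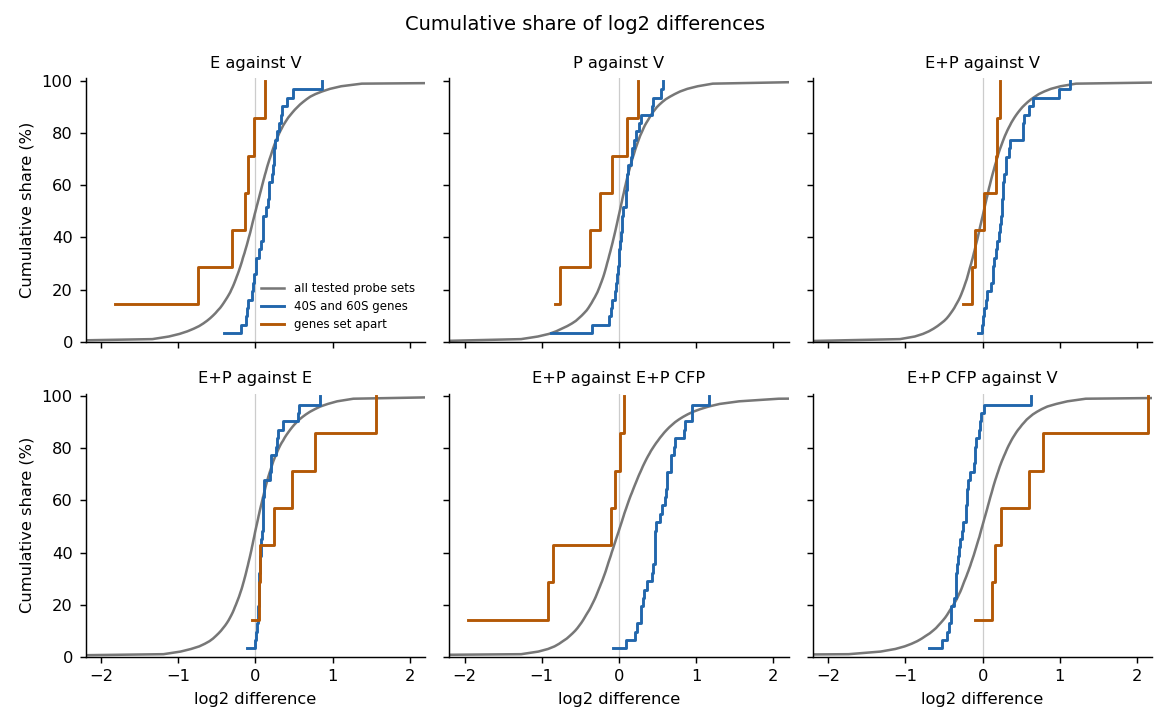
Cumulative share (%) of the 31 tested subunit genes, the 7 genes set apart and all 23063 tested probe sets against the log2 difference, in 6 comparisons. The curve of the subunit genes has its median at 0.25 in E+P against V, 0.47 in E+P against E+P CFP and -0.25 in E+P CFP against V, with all tested probe sets near 0 in each.

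Set against vehicle, both hormones together gave 1 call among the members. Rpl13a was higher in E+P than in V by 1.13 ± 0.19 (adjusted p = 0.00591, limma), which is 1 of 50 probe sets (2%), beside 0.256% of all probe sets called higher and 0.212% lower. Rpl13a read 7.64, 7.57, 7.47 and 8.04 in V, all below the lowest E+P animal at 8.48. In E it read 8.45, 8.45, 8.34 and 8.94 and in P 7.87, 8.68, 8.16 and 8.28. The E animals lay above all V animals, and the P animals overlapped with V only through P 1. Rpl10a came next, higher by 0.52 ± 0.12 (adjusted p = 0.0509, limma).

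The rest of the family did not pass. The median over 38 genes was 0.22, against 0.01 for all tested probe sets. Above 0 lay 33 genes (86.8%, beside 51.9% of all tested), with 17 above 0.24, the upper quartile of all tested probe sets. Rps13 had 0.99 ± 0.48 on a dim probe set, and Rps29 0.65 ± 0.32, Rps26 0.60 ± 0.17 and Rpl37 0.53 ± 0.49. A second Rps13 probe set had 1.22 ± 0.35, but V 1 read 5.47 there and the other V animals 7.33 to 7.91, and without V 1 the means differed by 0.70. At the other end lay Rpl10l at -0.26 ± 0.59, Rpl39l at -0.14 ± 0.19, Rps4l at -0.09 ± 0.22, Rps14 at -0.06 ± 0.21 and Rpl41 at -0.01 ± 0.15. At an unadjusted p below 0.05 were 10 of 50 probe sets (20%, against 10.7% of all tested). Every E+P animal exceeded every V animal for 3 of 50 probe sets, or 6%, of Rpl10a, Rpl13a and Rps13, against 2.47% of all tested. Marker lists also differed between E+P and V. Among proliferation genes 4 of 7 were called higher (57.1%, beside 0.256% of all tested), with a median of 1.80. Among endothelial genes 2 of 7 were called lower (28.6%, beside 0.212%), and 10 of 11 luminal genes lay above 0 with 0 called. The part of these in the ribosomal values was not tested. Without V 4 the count of calls was 3 and Rps26 was among them (adjusted p = 0.0451, limma; 0.0451 to 0.354 over its alternatives), and without P 2, P 3, P 4 or E+P 1 the count was 2.

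Estrogen alone gave 0 calls of 50 against V, where 0.0824% of all tested probe sets were higher and 0.0997% lower. Rpl13a was again the member with the smallest adjusted p, at 0.87 ± 0.20 (adjusted p = 0.0752, limma), and it passed without V 4 (adjusted p = 0.0323, limma; 0.0121 to 0.198 over its alternatives). At an unadjusted p below 0.05 were 6 of 50 probe sets, or 12%, against 12.1% of all tested, so the share was that of the background. The median over the genes was 0.10, beside 0.00 for all tested probe sets, with 24 of 38 above 0 (63.2%, beside 50.2% of all tested). Median scaling took the median to 0.01, with 19 of 38 above 0. Rpl37 differed by 0.49 ± 0.52, Rps26 by 0.41 ± 0.18, Rps29 by 0.35 ± 0.33 and Rpl10a by 0.33 ± 0.12. Rpl10l had a fitted difference of -1.82 ± 0.62, but 3 of 4 E animals were at the floor, so its size depends on the floor: it was -1.05 with a floor at the 40th percentile and -1.14 with an offset of 32. Rps27l differed by -0.75 ± 0.39, Rpl13 by -0.40 ± 0.46, Rpl3l by -0.30 ± 0.63 and Rps27 by -0.18 ± 0.17. Every E animal exceeded every V animal for 4 of 50 probe sets (8%, of Rpl10a, Rpl13a, Rplp2 and Rps13), against 3.69% of all tested. The lymphocyte mean ran from 0.38 to 1.83 in E, above V 1 to V 3. The Gapdh 3'/5' ratio of every E animal (1.24 to 1.72) lay below that of every V animal (1.97 to 3.69). The part of either in these values was not tested.

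Progesterone alone gave 0 calls among the members and 0% of all tested probe sets in either direction. The median over the genes was 0.04 and became -0.05 with median scaling. At an unadjusted p below 0.05 were 6 of 50 probe sets (12%, against 8.07% of all tested). Rpl13a differed by 0.57 ± 0.20 (adjusted p = 0.476, limma). The median moved to 0.12 without V 4 and to -0.05 without P 2.

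Adding progesterone to estrogen, E+P against E, gave 0 calls of 50, beside 0.0737% of all probe sets higher and 0.0694% lower. At an unadjusted p below 0.05 were 2 of 50, or 4%, against 9.92% of all tested. The median over the genes was 0.09, beside 0.01 for all tested probe sets, with 35 of 38 above 0 (92.1%, beside 51.6% of all tested). Adding estrogen to progesterone, E+P against P, also gave 0 calls, beside 0.269% higher and 0.0824% lower, with 12 of 50 probe sets at an unadjusted p below 0.05 (24%, against 11.5%). Its median was 0.20, beside 0.01 for all tested probe sets, with 32 of 38 genes above 0 (84.2%, beside 50.6% of all tested). Rpl10a had the smallest adjusted p, at 0.42 ± 0.12 (adjusted p = 0.128, limma). The interaction, which asks whether the 2 hormones together differ from the sum of their separate effects, gave 0 calls, beside 0.0347% higher and 0.039% lower, and 3 of 50 at an unadjusted p below 0.05 (6%, against 11.7%). The median interaction was 0.05, and it fell below 0 without V 4 (-0.04), P 1 (-0.05) or P 4 (-0.04). E+P, V, E and P enter several of these comparisons, which are therefore not independent of each other. The genes were read in the same animals, so counts of genes above 0 are descriptions and not counts of independent changes.

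The fat pads under both hormones were also set against vehicle glands. The members had a median of -0.20 against 0.00 for all tested probe sets, with 30 of 38 genes below 0 and Rpl3l highest at 2.14. Only Rpl6 was called, lower by 0.52 on the log2 scale (SE 0.12, adjusted p = 0.0164, limma). It read 11.45, 11.37, 11.43 and 11.68 in V, all above the fat pads. Of all tested probe sets, 0.685% were called higher and 2.41% lower, so 1 lower call of 50 is near the background. The call was lost without V 4, where the median became -0.10, without E+P CFP 1, with only these groups in the fit, and under median scaling (adjusted p = 0.0895, limma; 0.0026 to 0.264 over its alternatives). Without V 3, P 2, E+P 1, E+P 2 or E+P 3 there were 2 calls. The split was 1 higher and 0 lower with median scaling and 1 higher and 3 lower with quantile normalization. Every V animal exceeded every E+P CFP animal for 13 of 50 probe sets (26%, against 7.38% of all tested), and 13 of 50 had an unadjusted p below 0.05 (26%, against 14.1%). Tissue and hormone both differ between these groups and cannot be told apart.

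The 7 genes set apart did not share the shift of the subunit genes between E+P and E+P CFP. Their median was -0.10, with 2 of 7 above 0, and the difference between the 2 sets of genes was not tested. Rpl39l, a testis-enriched paralog of Rpl39, which lines the exit tunnel, was lower in E+P by 0.92 on the log2 scale (SE 0.21, adjusted p = 0.00742, limma). Its probe set 104544_at read 6.97, 5.79, 6.43, 6.51 and 6.48 in E+P and 7.43, 7.48 and 7.15 in E+P CFP, with no overlap. It read 6.54, 6.67, 6.90 and 6.18 in V, also below the fat pads. Rpl39 itself was not measured above the filter.

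Rpl3l is the paralog that takes the place of Rpl3 in skeletal and heart muscle. Its probe set 165907_f_at read 6.67, 5.30, 4.57, 6.78 and 6.26 in E+P and 7.76, 7.51 and 8.36 in E+P CFP. The groups did not overlap, but they differed by -1.96 ± 0.65, which missed the threshold (adjusted p = 0.0692, limma) in the fit of all groups. It passed with median scaling (adjusted p = 0.0470, limma; 0.0134 to 0.206 over its alternatives), with a higher floor or an offset, with only these 2 groups in the fit and without E 1. In V it read 6.23, 4.31, 6.03 and 6.39, where 4.31 is the floor. The second probe set, 167244_f_at, differed by -0.60 ± 0.57, and its groups overlapped, with E+P up to 6.92 and E+P CFP from 5.65. The muscle mean was also highest in the fat pads, at 1.97 to 2.61. It reached 1.84 in E 1, where the first Rpl3l probe set read 7.31, the highest of its group. Among the fat pads E+P CFP 3 was highest for both. In V, P and E+P the animals with the highest muscle mean were V 3, P 2 and E+P 5. There Rpl3l read 6.03, 5.15 and 6.26, in no case the highest of the group. The part of muscle in the Rpl3l values was not tested.

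The others showed no call in any comparison. Rpl10l, a testis paralog of Rpl10, read at the floor of 4.31 in 3 of 4 E animals and 5.25 in E 1, and between 5.73 and 7.12 in V. Rps27l, a paralog of Rps27 that p53 induces, had 0.02 ± 0.37 in E+P against V and -0.10 ± 0.40 in E+P against E+P CFP. Rpl7l1, which takes part in 60S assembly, had 0.18 ± 0.19 and -0.06 ± 0.21, Rps4l -0.09 ± 0.22 and 0.01 ± 0.24, and Rps19bp1 0.22 ± 0.14 and 0.06 ± 0.16.

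Probe sets of the same gene did not always read alike. Of 8 genes with more than 1 tested probe set, 4 (Rplp0, Rps28, Rps3 and Rps4x) had probe sets of opposite sign in E+P against E+P CFP, and 2 (Rpl22 and Rps3) in E+P against V. For Rps3, 101137_at differed by 0.47 ± 0.13 between E+P and E+P CFP, while 168181_i_at differed by -0.17 ± 0.18 and 168976_i_at by -0.51 ± 0.33. For Rplp0, 170488_r_at, with several animals at the floor, differed by -0.03 ± 0.53 where the other 2 were called higher. In E+P against V, the probe sets of Rpl3l lay 1.19 apart, those of Rpl22 0.75 and those of Rps3 0.56. Calls above are therefore calls of a probe set. The probe sets of Rpl7 and Rps24 carry the same source accession, so 1 of those 2 names may not be that of the RNA read.

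**Figure D5:**
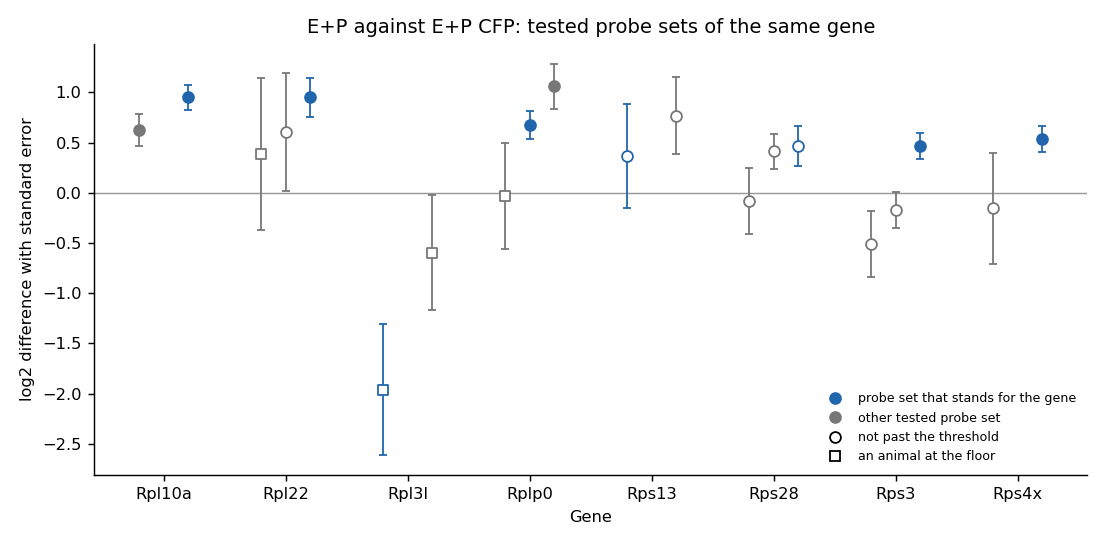
Log2 difference with its SE for each tested probe set of the 8 genes that have more than 1, in E+P against E+P CFP; blue marks the probe set that stands for the gene, filled points passed an adjusted p of 0.05, and squares have an animal at the floor. The Rps3 probe sets run from -0.51 to 0.47 against E+P CFP, and those of Rplp0 from -0.03 to 1.06.

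Ribosomal protein genes have many processed pseudogenes of nearly the same sequence. A further 52 probe sets name a ribosomal protein together with other symbols and were kept out of the members. Of the 46 tested, 16 were higher and 0 lower in E+P against E+P CFP (34.8% higher, beside 5.26% of all tested). Their median was 0.43, beside 0.43 over the 50 member probe sets. In E+P CFP against V, 4 were lower and 0 higher (8.70% lower, beside 2.41% of all tested). In the other 6 comparisons 0 were called. At an unadjusted p below 0.05 in E+P against V were 9 of 46 (19.6%, against 10.7% of all tested). They were tested in the same fit and in the same animals, so they are no separate evidence.

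Other genes of the translation machinery were read from lists chosen by function. Of 15 tested genes for elongation factors and other mRNAs known to carry a TOP tract, 5 were higher in E+P than in E+P CFP and 0 lower, with a median of 0.45 (33.3% higher, beside the 5.26% of all tested probe sets). They were Eif4b, the cofactor of the helicase eIF4A (1.17 ± 0.17), Npm1, a nucleolar chaperone (0.89 ± 0.19), Naca, which binds nascent chains (0.88 ± 0.17), Eef2, which moves the ribosome along mRNA (0.59 ± 0.17) and Pabpc1, the poly(A) binding protein (0.58 ± 0.15). Eif4b was also lower in E+P CFP than in V, by 0.81 on the log2 scale, which is 1 of 15 (6.67%, beside 2.41% of all tested). Of 34 ribosome biogenesis genes 3 were higher and 0 lower (8.82% higher, near the 5.26% of all tested), with a median of 0.17: Ncl (0.70 ± 0.20), Pes1 (0.67 ± 0.21) and the rRNA methylase Fbl (0.61 ± 0.18). Mybbp1a, a nucleolar protein of the same list, was lower in E+P CFP than in V by 1.19 on the log2 scale (SE 0.32, adjusted p = 0.0483, limma). That is 1 of 34 (2.94%), near the 2.41% of all tested probe sets called lower there.

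The remaining lists showed few calls. Among 25 initiation factors, 0 were higher and 1 lower, Eif4ebp1, the repressor of eIF4E (-0.93 ± 0.19), which is 4% beside 2.66% of all tested, and the median was 0.03. Among 66 mitochondrial ribosomal proteins, which serve the separate ribosome of mitochondria, 0 were higher and 2 lower, Mrpl12 (-0.74 ± 0.19) and Mrpl15 (-0.48 ± 0.14), which is 3.03% and near the 2.66% of all tested, with a median of -0.10. Among 11 RNA polymerase I genes 0 were called, with a median of 0.20. Among 10 regulators 1 was higher, Myc, a transcription factor that drives ribosome genes (2.15 ± 0.34). That is 10%, beside 5.26% of all tested, and the median of the list was 0.12. In E+P against V, 0 genes of these 6 lists were called, with medians of 0.17 for the TOP list, 0.13 for biogenesis, 0.08 for initiation factors, 0.06 for mitochondrial ribosomal proteins, 0.13 for RNA polymerase I and 0.03 for the regulators. Differences between lists were not tested, and the lists were read with the main scaling only.

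Of the 13 member genes called in E+P against E+P CFP, 12 had a promoter in the table. Of these, 1 (Rps18) has a tract exactly at its annotated start, beside 21.1% of all matched members, and 4 (with Rpl13a, Rpl7a and Rps26) have one within 5 bases, beside 39.5%. The other 8 (Rpl10a, Rpl6, Rpl22, Rplp0, Rpl39l, Rps3, Rps4x and Rps7) have none within 5 bases.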

How the data were processed

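Mouse mammary RNA, taken to come from 20 ovariectomized animals, was read on 60 one-channel Affymetrix MG-U74 arrays (types A, B and C). The authors deposited linear signal intensity per probe set, for which the submitters' processing notes name MAS5 (version and settings not given in the sources used here). The deposited arrays shared a 2% trimmed mean between 149.3 and 150.0. Gene symbols came from GEO's platform annotation, and arrays of type A correlated with each other at 0.835 to 0.961.

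The deposited intensities of each array type were rescaled to a common 2% trimmed mean and floored at the 25th percentile (13.6, 28.6 and 19.8 for A, B and C). The rescaled, floored signal was then taken to log2. Probe sets above the 50th percentile (61.6, 85.7 and 61.8) in at least 3 animals were tested: 7223, 7716 and 8124. limma 3.58.1 (R 4.3.3) fitted a mean for each of the 5 groups with an intensity trend, and p-values were adjusted (Benjamini-Hochberg) over all 23063 probe sets, with a threshold of 0.05. The p-values set differences between groups against the spread between animals, and the number of animals limits the precision. The fit was tested on simulated data.

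A gene with several probe sets was represented by 1 in medians: type A before B before C, then a plain suffix, then the brighter. Named were members that passed, the 5 most positive and 5 most negative in E, E+P against V and E+P against E+P CFP, the 5 brightest and dimmest, the 3 with the most discordant probe sets, and a fixed set; of that set, Rplp1, Rpl3, Rpl5, Rpl11, Rpl22l1, Rpl10 and Rps27a had no probe set under the name rule. Levels of different probe sets were not ranked in the text. Members and lists were chosen with earlier results of these data known. A further gene list is not reported here. Protein sequences were not used here. Alternatives covered scaling, floor, filter, variance model, samples in the fit, the replicate block and leaving out each animal.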

Additional observations from a re-analysis of the deposited data

Results flagged for a closer look

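In 17 of 164 groups of 4 or 5 animals checked, 1 animal lay apart from the others by Dixon's criterion, and chance alone flags about 1 in 20 groups. V 4 was the high animal for 9 members: Rpl7 at 12.52 (others 11.96 to 12.03), Rpl8 at 11.82 (11.42 to 11.47), Rplp0 at 12.95 (12.51 to 12.53), Rps18 at 12.65 (12.28 to 12.34), Rps20 at 14.75 (14.04 to 14.07), Rps3 at 12.43 (11.95 to 12.01), Rps3a1 at 12.93 (12.46 to 12.51), Rps7 at 11.99 (11.38 to 11.43) and Rpsa at 10.81 (10.24 to 10.29). V 4 also had the highest lymphocyte mean and Gapdh ratio of the vehicle group, whose part was not tested. P 2 was high for Rpl8 at 12.03 (others 11.41 to 11.48) and Rplp0 at 13.11 (12.43 to 12.53).

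E+P 2 was high for Rps7 at 12.17 and for Rps19bp1 at 9.25, and P 1 was low for Rps19bp1 at 8.36. E+P 5 had a mean deviation of the 60S genes of 0.316, above the 0.203 to 0.231 of the other E+P animals. Rpl10l read 5.25 in E 1 with the other E animals at the floor, and Rpl3l was at the floor of 4.31 in V 2 with the other V animals at 6.03 to 6.39.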

How the results depend on the processing

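Of 504 recalculations of the 16 main results, 466 were scored as close to the main value, 38 as moved and 0 as reversed. This score did not separate higher from lower calls. With median scaling the 1 call in E+P CFP against V was higher, where the main fit had 1 lower, and it was scored as close. So were 10 calls in E+P against E+P CFP, beside 15 in the main fit. The members' median changed sign in P against V and in the interaction under some alternatives. Median scaling took the members' median to 0.0052 in E against V, -0.0483 in P against V, 0.1198 in E+P against V, 0.2351 in E+P against E+P CFP and -0.1105 in E+P CFP against V. Quantile normalization gave 23 calls between E+P and E+P CFP, 2 in E+P against V and 4 in E+P CFP against V. A floor at the 40th percentile gave 2 calls in E+P against V and 2 in E+P CFP against V, and an offset of 32 gave 3 in the latter. Without a filter the E+P against E+P CFP median was 0.3651 (more genes entered), and a filter at the 70th percentile gave 2 calls in E+P against V. Array weights gave 1 call in E against V and 3 in E+P against V. Leaving out V 4, E 1 and E+P CFP 1 together, an alternative chosen after seeing the data, gave a P against V median of 0.1242, 2 calls in E+P against V, an interaction median of -0.0628 and 0 calls in E+P CFP against V. Except where stated, the cause was not tested.

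Leaving out 1 animal at a time gave 0 to 1 calls in E against V, 1 to 3 in E+P against V (3 without V 4), 10 to 19 in E+P against E+P CFP (10 without E+P CFP 2) and 0 to 2 in E+P CFP against V (0 without V 4 or E+P CFP 1). Medians ran from 0.0514 to 0.174 in E against V, -0.0498 to 0.1242 in P against V, 0.1524 to 0.2691 in E+P against V, -0.0476 to 0.135 in the interaction, 0.422 to 0.483 in E+P against E+P CFP and -0.254 to -0.0961 in E+P CFP against V. With the replicate block, E+P against E+P CFP had 12 calls, losing Rpl10a 161327_f_at, Rps20 and Rps3, and E+P against V had 1. Animals sharing a number did not deviate together on average (mean r 0.0195 over 36 pairs, -0.0046 over 123 others). This gives no sign that the numbers pair them, but a mean near 0 cannot exclude a pairing. Of 1301 recalculations of 41 named values, 1252 stayed, 35 lost a call, 8 gained one, 6 moved and 0 reversed a call, while 8 values that were not called changed sign under some alternative.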
